A study of Mus musculus with 4 samples.

Results

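The genes of mitosis and of the spindle, 50 in number, were followed in mesenchymal stroma cells (MSCs) and CD8+ T cells sorted out of Bcr-Abl+ tumors that had grown in Wt or Sipa1-/- hosts. They were given as a list of names by their known roles, drawn up with earlier results of these data known, and they are 50 of the 22911 genes that could be named on the array. In MSCs, 47 of the 49 that were measured had a signal at least 2-fold lower in Sipa1-/- than in Wt, against 11.3% of all genes measured. The MSC samples also differed in blood cell RNA, with a median log2 ratio of Sipa1-/- over Wt of -4.16 for B-lineage markers. The part of such cells in the lower signal was not tested. In CD8+ T cells none of 50 differed by 2-fold, against 4.06% of all genes measured. The tumors arose from Bcr-Abl+ hematopoietic progenitor cells (HPCs), which carried GFP, and the study asked how the host's Sipa1, a GTPase-activating protein for Rap1, shapes the response of stroma and T cells to them.

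Both groups were C57BL/6Ncr mice aged 8 weeks, either Wt or Sipa1 knockout, and the labels give 5 mice of each genotype. Every mouse received 15000 HPCs of Wt origin under the skin in Matrigel, so the tumor cells kept Sipa1 in both groups, and tumors were taken on day 12. MSCs were sorted as GFP- CD45- Ter119- CD31- cells, a gate set by the absence of markers, and CD8+ T cells as GFP- TCRb+ CD8+ cells. The labels do not say how many mice each RNA came from. One-color Agilent arrays were hybridized with 1 RNA per cell type and genotype, 4 in all, so no difference below has a replicate check, no test was possible, and the number of arrays limits the precision.

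A dividing cell must condense its chromosomes, attach each sister chromatid to the spindle through a kinetochore, hold back separation until all are attached, and then divide the cytoplasm between the daughters. Most of the genes for this machinery are transcribed late in the cell cycle and shut off in resting cells, so their RNA is widely read as a sign of proliferation. Activated T cells and leukemic or immature blood cells divide fast, whereas tissue fibroblasts mostly rest unless stimulated.

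Late cell cycle genes are known to share promoter elements, above all the cell cycle genes homology region (CHR), read by the MuvB complexes that include Mybl2 and Foxm1, and the CCAAT box, read by NF-Y. The promoters of 6 members are shown because 4 hold the letters searched for these elements and 2 do not. Even so, the signal of all 6 was between 3.98-fold and 6.17-fold lower in Sipa1-/- MSCs. Each line gives the 120 bases before the transcription start, 5′ to 3′ along the gene, from RefSeq on GRCm38.p6, and capitals mark TTTGAA (the CHR) and CCAAT or their reverse complements TTCAAA and ATTGG.
Cdk1: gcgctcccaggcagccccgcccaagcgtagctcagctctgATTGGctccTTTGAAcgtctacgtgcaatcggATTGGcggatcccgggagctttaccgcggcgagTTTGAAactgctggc
Ccnb2: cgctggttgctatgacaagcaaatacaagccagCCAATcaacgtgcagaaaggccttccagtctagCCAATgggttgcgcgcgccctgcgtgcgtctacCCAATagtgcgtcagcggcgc
Cdc20: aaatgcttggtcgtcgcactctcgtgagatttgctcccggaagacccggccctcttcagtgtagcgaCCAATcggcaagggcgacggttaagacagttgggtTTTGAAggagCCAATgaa
Kif11: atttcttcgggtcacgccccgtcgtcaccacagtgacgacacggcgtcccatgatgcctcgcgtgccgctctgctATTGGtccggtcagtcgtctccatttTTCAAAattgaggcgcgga
Nusap1: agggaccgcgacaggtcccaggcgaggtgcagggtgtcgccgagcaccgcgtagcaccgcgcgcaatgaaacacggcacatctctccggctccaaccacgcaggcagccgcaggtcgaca
Birc5: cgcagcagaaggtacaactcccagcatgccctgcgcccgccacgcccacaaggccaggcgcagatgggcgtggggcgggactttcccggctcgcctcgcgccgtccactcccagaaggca
The stretches are chr10:69352913-69353032 on the minus strand for Cdk1, chr9:70421555-70421674 on the minus strand for Ccnb2, chr4:118437344-118437463 on the minus strand for Cdc20, chr19:37376262-37376381 on the plus strand for Kif11, chr2:119618178-119618297 on the plus strand for Nusap1 and chr11:117849117-117849236 on the plus strand for Birc5.

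In Cdk1 a CHR began 15 bases before the start and another 71 bases before it, with CCAAT boxes on the reverse strand between 48 and 80 bases before the start. The 3 CCAAT boxes of Ccnb2 lay 21, 54 and 87 bases before the start. Its CHRs lay outside the printed stretch, beginning 167 bases before the start and 4 bases after it. In Cdc20 the CHR stood 18 bases before the start, and in Kif11 19 bases before it on the reverse strand. Over the windows from 250 bases before to 50 bases after the start, which the table held for 41 of the 50 members, TTTGAA was found on either strand in 29, or 70.7%, against 20.2% of 27025 genes. CCAAT was found in 30 members, or 73.2%, against 41.1% of genes, and both together in 25 members, or 61.0%, against 8.97%. The E2F letters TTTGGCGC or TTTCCCGC, the motif of genes switched on before replication, were found in 4 members (Kif15, Kif18a, Ncapg and Ncapd2), or 9.76%, against 1.80% of genes. The letters of no motif contain those of another, and a match is a description of the sequence, not evidence of a bound site. Only exact letters were searched, so a window without a match is not evidence that an element is absent. Members with and without a motif lay close together in MSCs: the median log2 ratio of Sipa1-/- over Wt was -2.04 for 24 measured members with both CHR and CCAAT box and -1.88 for the 16 without both. Among the 6 members whose windows held none of the motifs were Nusap1 and Birc5 as well as Pttg1, the exception described below.

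Each signal is the log2 of the spot intensity minus the 75th percentile of its array, so 0 is the signal of a fairly bright spot. Signals of one gene are compared between arrays under this scaling, and some comparisons below change with the scaling. Those of different genes depend on their probes and are not compared. Of 81 probes for the members, 76 passed the flags for an even, unsaturated spot well above background on all 4 arrays. In MSCs 49 members had a passing probe, and the missing one was Aurka, whose spot on the Wt MSC array had uneven background. On each array 60.3% to 65.3% of 59305 spots were well above background and none was saturated. Sipa1 was lower on both Sipa1-/- arrays by each of its 2 probes, with log2 ratios of -1.59 and -1.25 in MSCs and -2.05 and -1.67 in CD8+ T cells. It stayed well above background on all 4 arrays, and whether its probes lie in the deleted sequence is not given in the sources used here.

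The sorts were first compared with markers of their cell type. Fibroblast markers, 21 genes such as Pdgfrb and Col1a1, were well above background in both MSC samples, and the median of those measured was 5.07 higher on the log2 scale in MSCs than in CD8+ T cells in Wt and 5.42 higher in Sipa1-/-. T cell markers had a median log2 ratio of MSCs over CD8+ T cells of -6.95 in Wt and -6.86 in Sipa1-/-, and all 16 were well above background in both T cell samples. The Wt MSC sample also held B-lineage RNA. All 18 markers of that lineage were well above background in it, and their values are given with the markers of other blood cells after the results. The sample labelled Wt MSC thus carried RNA of a blood lineage although the sort was CD45-. Both MSC samples carried RNA of other blood lineages too. The summed signal of granulocyte markers was 734 in Wt and 826 in Sipa1-/- MSCs, against 641 and 338 in the T cell samples. That of erythroid markers was 373 and 389, against 9.69 and 4.68.

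In MSCs, mitosis and spindle genes were lower in Sipa1-/- than in Wt as a block. The median log2 ratio of the 49 measured members was -1.99, a 3.98-fold lower signal, and their quartiles were -2.11 and -1.82. At least 2-fold lower were 47 of 49, where 11.3% of all 15298 genes measured were. At least 4-fold lower were 23 of 49, where 530 of the 15298 genes were. The median of all genes was 0.04, and 2958 of them were at least 2-fold higher. The SD among members was 0.43 on the log2 scale, against 1.08 among all genes. The members lie on 16 chromosomes.

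**Figure D1:**
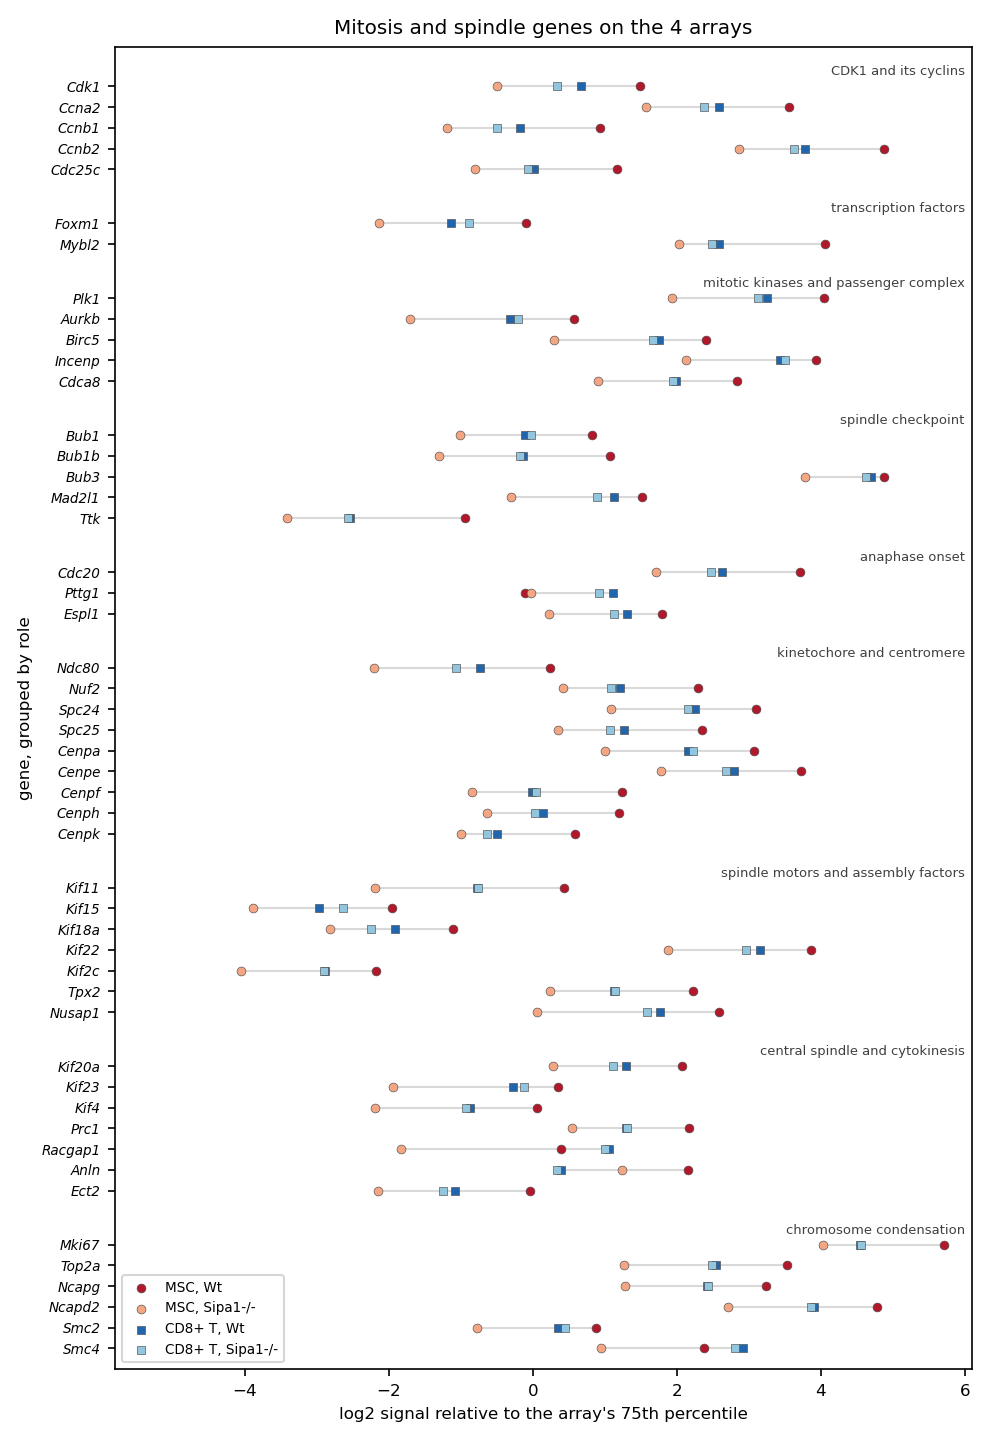
The horizontal axis is the log2 signal relative to the array's 75th percentile and each row is 1 of the 49 genes with a probe passing on all 4 arrays, grouped by role; circles are MSCs, squares are CD8+ T cells, dark is Wt and light is Sipa1-/-, with 1 array each and no error bars. In 45 of 49 rows the Wt MSC circle is the highest and the Sipa1-/- MSC circle the lowest, with the CD8+ T squares between them; positions should be compared within a row only.

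CDK1 and its cyclins start mitosis, and all 5 genes of this group were at least 2-fold lower in Sipa1-/- MSCs. Cdk1, the kinase itself, had a log2 signal of 1.49 in Wt MSCs, -0.50 in Sipa1-/- MSCs, 0.66 in Wt CD8+ T cells and 0.34 in Sipa1-/- CD8+ T cells. Ccnb1, the B cyclin that activates it, had 0.93, -1.19, -0.18 and -0.50 in the same order. Both genes were highest in Wt MSCs and lowest in Sipa1-/- MSCs, 3.98-fold apart for Cdk1 and 4.34-fold apart for Ccnb1, with the T cell samples between. Cdc25c, the phosphatase that releases CDK1 from inhibition, had 1.18, -0.80, 0.02 and -0.07, the smallest MSC difference of the group at a log2 ratio of -1.98. Ccna2 and Ccnb2, cyclins of the same phase, had log2 ratios of -1.98 and -2.01. The 5 ratios thus spanned only -2.12 to -1.98, whereas in CD8+ T cells they spanned -0.32 to -0.09.

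Foxm1 and Mybl2 are transcription factors that switch on late cell cycle genes. Foxm1 had a log2 signal of -0.10 in Wt MSCs, -2.14 in Sipa1-/- MSCs, -1.13 in Wt CD8+ T cells and -0.89 in Sipa1-/- CD8+ T cells. Mybl2 had 4.05, 2.03, 2.59 and 2.49. Both were about 4-fold lower in Sipa1-/- MSCs, at log2 ratios of -2.04 and -2.02, and their log2 ratios in T cells were 0.24 and -0.10. The 2 probes of Foxm1 were both positive in T cells but unequal, as the plot of probe ratios shows.

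Mitotic kinases and the chromosomal passenger complex correct faulty spindle attachments, and all 5 measured genes of the group were at least 2-fold lower in Sipa1-/- MSCs. Plk1, a kinase needed from mitotic entry to cytokinesis, had a log2 signal of 4.05 in Wt MSCs, 1.94 in Sipa1-/- MSCs, 3.25 in Wt CD8+ T cells and 3.13 in Sipa1-/- CD8+ T cells. Aurkb, the kinase of the passenger complex, had 0.57, -1.70, -0.32 and -0.20. Its MSC ratio of -2.28 was the lowest of the group, and its T cell ratio was 0.12. Birc5 (survivin), which anchors the complex, had 2.40, 0.29, 1.76 and 1.68 by the probe that passed on all 4 arrays. Incenp, the scaffold, had 3.93, 2.12, 3.43 and 3.50, the smallest MSC difference of the group at -1.81. Aurka, the spindle pole kinase, had 2.47 and 2.37 in Wt and Sipa1-/- CD8+ T cells, and its signals in MSCs, left out of all counts because of the flag on the Wt spot, were 3.46 in Wt and 1.57 in Sipa1-/-.

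The spindle checkpoint holds back anaphase until every kinetochore is attached. Its 5 genes were at least 2-fold lower in Sipa1-/- MSCs but spanned a wide range. Ttk, the kinase at the top of the checkpoint, had a log2 signal of -0.94 in Wt MSCs, -3.41 in Sipa1-/- MSCs, -2.54 in Wt CD8+ T cells and -2.57 in Sipa1-/- CD8+ T cells, a 5.57-fold lower signal in Sipa1-/- MSCs. Bub3, which is also present outside mitosis, had 4.88, 3.78, 4.70 and 4.62 and differed by 2.15-fold. It was the member closest to the 2-fold threshold on the inner side. Bub1b, Bub1 and Mad2l1 lay at log2 ratios of -2.38, -1.84 and -1.82.

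Anaphase begins when Cdc20 turns on the anaphase-promoting complex, which destroys securin (Pttg1) and frees separase (Espl1). Cdc20 had a log2 signal of 3.71 in Wt MSCs, 1.71 in Sipa1-/- MSCs, 2.63 in Wt CD8+ T cells and 2.48 in Sipa1-/- CD8+ T cells. Espl1 was lower in Sipa1-/- MSCs too, with a log2 ratio of -1.57. Pttg1 was the exception among all members, with -0.11, -0.03, 1.11 and 0.93. Its MSC samples were nearly equal, at a log2 ratio of 0.09 (-0.05 after a median shift of the arrays, 0.29 with the authors' scaled values), and both lay below both T cell samples. Its 2 probes gave 0.013 and 0.16 in MSCs and -0.18 and -0.19 in CD8+ T cells.

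Kinetochore and centromere genes, the attachment sites of the chromosomes, were at least 2-fold lower in Sipa1-/- MSCs in 9 of 9 cases, 4.01-fold at the median. Ndc80, whose complex grips the microtubule, had a log2 signal of 0.24 in Wt MSCs, -2.20 in Sipa1-/- MSCs, -0.74 in Wt CD8+ T cells and -1.07 in Sipa1-/- CD8+ T cells. Its MSC samples were 5.45-fold apart, and its ratio in T cells, -0.33, was the lowest of all members there. The other subunits of the Ndc80 complex, Nuf2 and Spc24, lay at -1.88 and -2.02 in MSCs, with Spc25 between them. Cenpa, the histone variant that marks the centromere, lay at -2.08, and Cenpe and Cenpf, which act at the outer kinetochore, at -1.95 and -2.08. Cenpk, of the inner kinetochore, had 0.59, -0.99, -0.50 and -0.64 by the probes passing on all 4 arrays, the smallest MSC difference of the group at -1.58.

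Spindle motors and assembly factors push, slide and bundle microtubules, and all 7 were at least 2-fold lower in Sipa1-/- MSCs. Kif11, the kinesin that separates the spindle poles, had a log2 signal of 0.44 in Wt MSCs, -2.19 in Sipa1-/- MSCs, -0.77 in Wt CD8+ T cells and -0.76 in Sipa1-/- CD8+ T cells. This 6.17-fold difference in MSCs was the largest of all members, beside T cell samples that were 0.01 apart. Nusap1, a microtubule bundling protein, followed at 5.75-fold. Kif18a, which shortens kinetochore fibres, had -1.11, -2.82, -1.92 and -2.24, the smallest MSC difference of the group at -1.70. Kif15, which can share the work of Kif11, had -1.95, -3.88, -2.97 and -2.63. Against a log2 ratio of -1.93 in MSCs, its T cell ratio of 0.34 was the highest of all members. Kif22, Kif2c and Tpx2 lay at -1.99, -1.89 and -1.99 in MSCs.

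Genes of the central spindle and of cytokinesis, which split the daughter cells, were at least 2-fold lower in Sipa1-/- MSCs in 6 of 7 cases. Kif23, the kinesin of the centralspindlin complex, had a log2 signal of 0.35 in Wt MSCs, -1.95 in Sipa1-/- MSCs, -0.27 in Wt CD8+ T cells and -0.12 in Sipa1-/- CD8+ T cells. Its partner Racgap1 had 0.39, -1.83, 1.05 and 1.00, so that both T cell samples lay above the Wt MSC sample, unlike in Kif23. Anln (anillin), a scaffold of the contractile ring that links actin to the membrane, had 2.16, 1.24, 0.39 and 0.34. It was the member just outside the 2-fold threshold, at a log2 ratio of -0.92. By this scaling and flag rule it was the only one higher in MSCs of both genotypes than in T cells. A further Anln probe was above background in Wt MSCs alone and was not used. Without flags, which let that probe in, Anln was at least 2-fold lower in Sipa1-/- MSCs than in Wt. It was then also lower in Sipa1-/- MSCs than in Sipa1-/- T cells, as were all 50 members. Kif20a, Kif4, Prc1 and Ect2 lay between -2.25 and -1.63 in MSCs.

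Genes of chromosome condensation and the proliferation marker Mki67, whose protein coats mitotic chromosomes, were at least 2-fold lower in Sipa1-/- MSCs in 6 of 6 cases. Mki67 had a log2 signal of 5.71 in Wt MSCs, 4.03 in Sipa1-/- MSCs, 4.55 in Wt CD8+ T cells and 4.56 in Sipa1-/- CD8+ T cells, and was 3.21-fold lower in Sipa1-/- MSCs. Top2a, the topoisomerase that untangles sister chromatids, had 3.53, 1.27, 2.54 and 2.49, 4.79-fold apart in MSCs. Smc4, a core subunit of condensin, had 2.37, 0.94, 2.92 and 2.81. Its T cell samples were the highest, and its MSC difference of -1.43 was the smallest of the group. The other condensin genes Smc2, Ncapg and Ncapd2 lay at -1.65, -1.96 and -2.06.

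**Figure D2:**
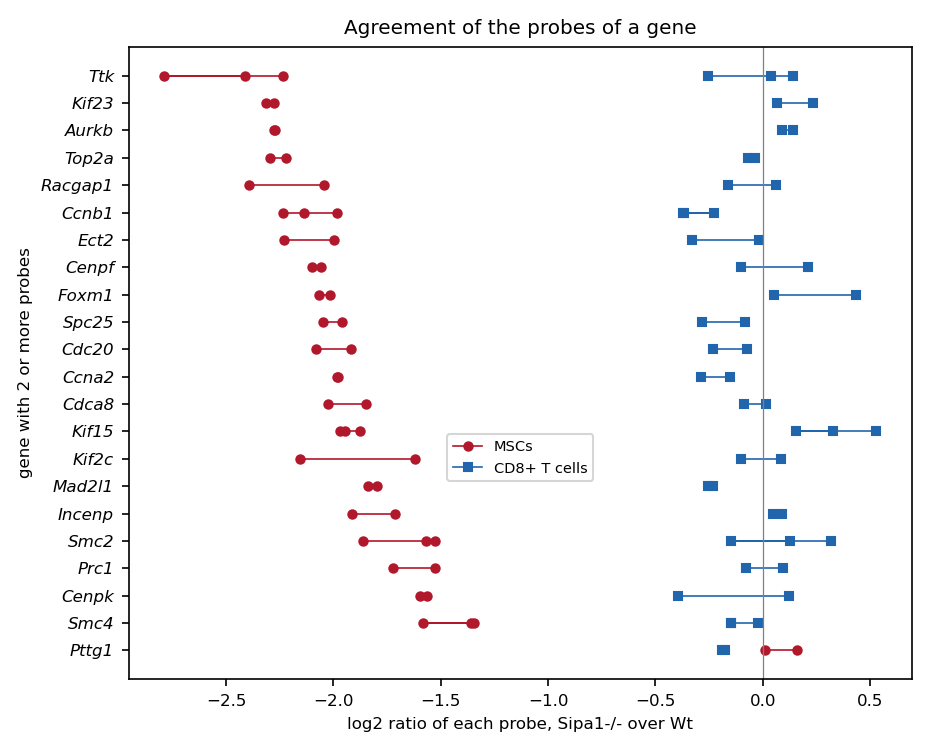
The horizontal axis is the log2 ratio of Sipa1-/- over Wt for each probe and each row is a gene with at least 2 probes passing on all 4 arrays; red circles are MSCs, blue squares are CD8+ T cells, and the line joins the lowest and highest probe. Probes of a gene lie close together in MSCs and, except for Pttg1, all far below 0, while in CD8+ T cells they scatter around 0.

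The only errors this design gives are between spots and between probes. The same probe printed 10 times on an array varied with a median SD of 0.04 on the log2 scale, which puts the spot noise of a ratio at 0.0589. In MSCs, 22 members had at least 2 passing probes, 49 in all, and the median SD between probes of a gene was 0.11. In all 22 the probes shared a sign, and the widest gap was 0.56, for Ttk. A gap of that size is well below the typical MSC difference of the members. In CD8+ T cells the median SD between probes was 0.12 and the sign was shared in 15 of 23 members. These errors do not cover differences between mice or sorts.

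In CD8+ T cells, the members differed little between the genotypes. The median log2 ratio was -0.09, and it was 0.041 with the authors' scaled values, so its sign depends on the scaling. The range ran from -0.33 for Ndc80 to 0.34 for Kif15. Below 0 were 36 of 50, against 53.9% of all genes, and 18 of 50 with the authors' scaled values. None of the 50 was past 2-fold in either direction, where 4.06% of 14339 genes were, and none was under any alternative tried. Among the 7169 genes above the median of mean signal, which held 41 of the members, only 0.98% were at least 2-fold lower and 0.93% higher. The SD was 0.14 among members and 0.42 among all genes, dim ones included, and was not computed among genes of like signal. Of the 49 members with probes passing on all 4 arrays, 36 differed by less than 3 times the spot noise. Mki67, with 4.55 in Wt and 4.56 in Sipa1-/-, and Top2a, with 2.54 and 2.49, were among these.

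**Figure D3:**
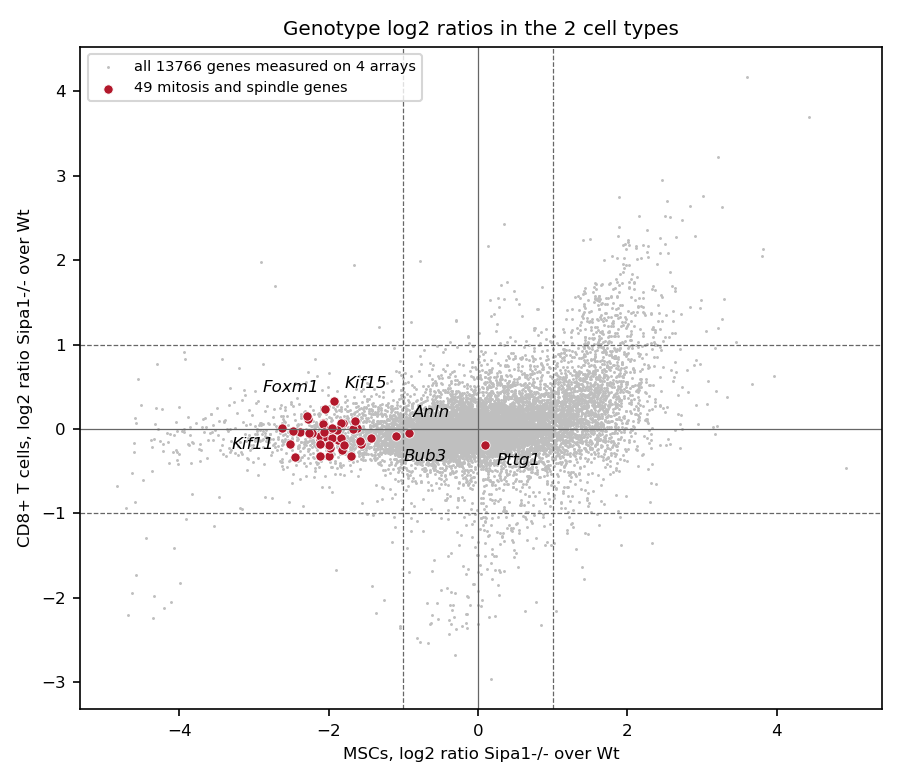
The horizontal axis is the log2 ratio of Sipa1-/- over Wt in MSCs and the vertical axis the same in CD8+ T cells; gray points are the 13766 genes with probes passing on all 4 arrays, red points the 49 mitosis and spindle genes, and dashed lines mark 2-fold. The red points form a flat band near 0 in CD8+ T cells and mostly near -2 in MSCs, with Pttg1 apart at 0.09 and Anln at -0.92.

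The genotype ratio was lower in MSCs than in CD8+ T cells for 48 of 49 members, against 50.7% of 13766 genes. The median difference of the 2 log2 ratios was -1.89, against -0.02 over those genes. The exception was Pttg1, at 0.27, and the lowest was Kif11, at -2.64. This difference was not tested, since each ratio rests on 2 arrays.

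Set against T cells of the same genotype, the members lay on opposite sides in the MSCs of the 2 genotypes. In Wt the median log2 ratio of MSCs over CD8+ T cells was 0.93. Above 0 were 46 of 49 members, against 6626 of 14225 genes, and 19 were at least 2-fold higher, where 17.3% of genes were. Anln was the highest, at 1.77, Pttg1 was at least 2-fold lower, at -1.22, and Racgap1 and Smc4 were below 0. In Sipa1-/- the median was -0.97, with 49 of 50 below 0 (46 of 50 with the authors' scaled values), against 57.1% of 14300 genes. At least 2-fold lower were 24, where 18.7% of genes were. Racgap1 was the lowest, at -2.83, and Anln, at 0.90, was the only member above 0 by the 75th percentile scaling with flags. Without flags all 50 members were below 0. The medians kept their sign under all alternatives, but the counts past 2-fold ran from 4 to 41 in Wt and from 4 to 37 in Sipa1-/- with the scaling of the arrays. Across the 4 arrays together, Wt MSCs were highest and Sipa1-/- MSCs lowest for 45 of 49 members, or 91.8%, and for 12.0% of 13766 genes. The 4 members that departed from this order were Pttg1, Racgap1, Anln and Smc4. These comparisons share arrays and are not independent of each other.

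Genes that work beside the members were described in the same way in MSCs. Of 74 measured other mitosis genes, 64 were at least 2-fold lower in Sipa1-/-, against 11.3% of all genes. None was at least 2-fold higher, against 19.3% of all genes, and the median log2 ratio was -1.71. Pmf1, a kinetochore protein, was lowest at -2.59, Pbk, a mitotic kinase, lay at -2.49 and Cdc25b, a phosphatase of mitotic entry, at -2.47, whereas Cenpt, Cep55 and Zwint lay at -0.55, -0.53 and -0.40. DNA replication genes, needed in the phase before mitosis, were at least 2-fold lower in 37 of 41 cases, or 90.2%, with a median of -1.73. Uhrf1, which guides DNA methylation after replication, was lowest at -2.85, and Mcm3, of the replicative helicase, lay at -2.29. At the upper end of that list stood the cyclin Ccne2 at -0.63, the transcription factor E2f1 at -0.44 and Gins3 at -0.38.

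Machinery with roles outside mitosis stood nearer to 0. Subunits of the anaphase-promoting complex, which Cdc20 activates, together with its co-activator Fzr1, had a median log2 ratio of -0.27 in MSCs. At least 2-fold lower was 1 of 15, Anapc15 at -1.19, or 6.7% against 11.3% of all genes. Fzr1 and Anapc5 were at -0.58 and -0.51, and Anapc11, Anapc4 and Cdc16 at 0.42, 0.43 and 0.48. Cohesin subunits and regulators, which hold sister chromatids together, had a median of -0.89, with 4 of 13, or 30.8%, at least 2-fold lower. Among these Esco2, which acetylates cohesin during replication, lay at -2.20, Pds5a at -1.18 and Hdac8 at -1.15, while Stag1, Mau2 and Wapl lay at -0.32, -0.27 and 0.11. D-type cyclins and their kinases, which pass growth signals to the cycle, had a median of -0.72, and they ranged from Ccnd3 at -1.79 to Ccnd1 at 0.58.

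Cell cycle inhibitors and quiescence genes lay on both sides of 0 in MSCs, with a median log2 ratio of 0.02. At least 2-fold lower in Sipa1-/- were 5 of 19, or 26.3%, against 11.3% of all genes, and 4, or 21.1%, were at least 2-fold higher, close to the 19.3% of all genes. Cdkn1c, an inhibitor of cyclin-dependent kinases, had a log2 signal of 1.91 in Wt and 4.23 in Sipa1-/-, a log2 ratio of 2.32. Cdkn2b, an inhibitor of the kinases of D-type cyclins, and Gas1, a growth arrest gene, were at 1.93 and 1.88. On the lower side stood Rbl1, a relative of the retinoblastoma protein, at -1.82, the transcription factor Foxo1 at -1.62 and the inhibitor Cdkn2c at -1.55. In CD8+ T cells the medians of these 6 lists ran from -0.14 to 0.06.

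**Figure D4:**
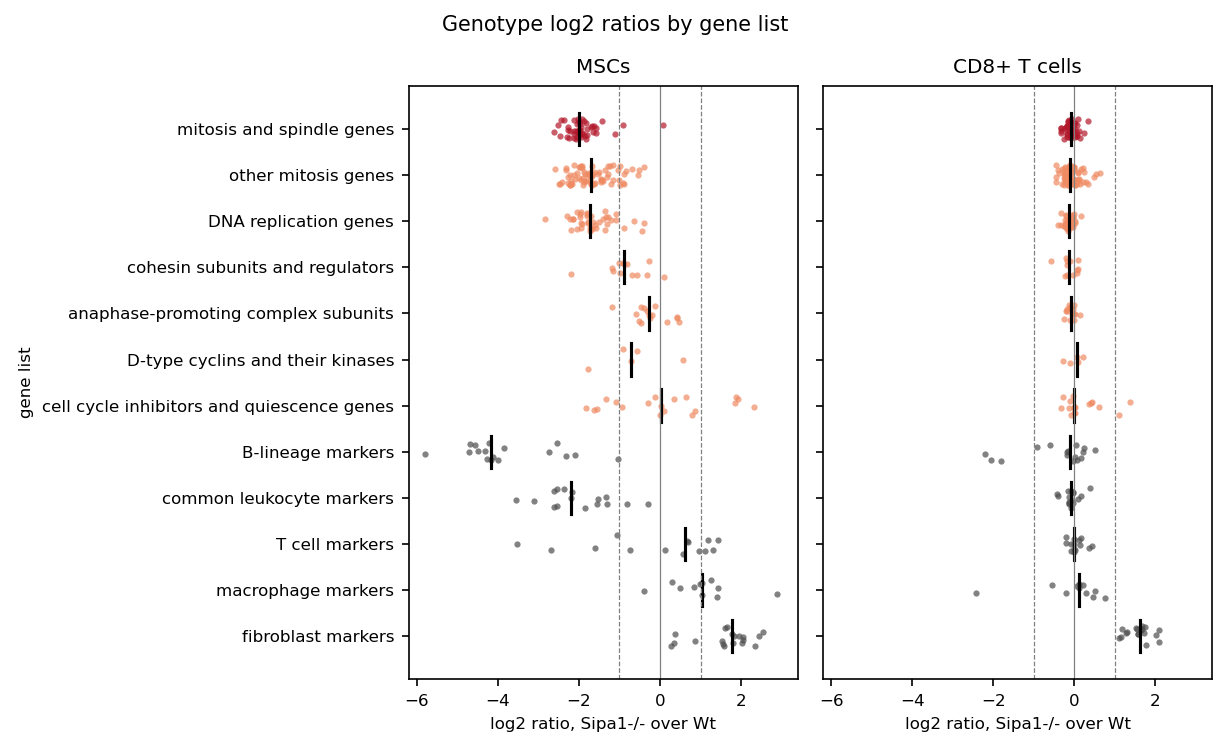
The horizontal axes are the log2 ratio of Sipa1-/- over Wt in MSCs (left) and CD8+ T cells (right), each row is a gene list, each point a measured gene of it, black bars are medians and dashed lines mark 2-fold; points are spread vertically only to be seen. In MSCs the median is -1.99 for mitosis and spindle genes, -1.71 for other mitosis genes and -1.73 for DNA replication genes. B-lineage markers lie lower still at a median of -4.16 and fibroblast markers lie above 0 at 1.78. In CD8+ T cells most lists, apart from the fibroblast markers, center near 0.

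Of the blood cell lists, B-lineage and common leukocyte markers moved with the members in MSCs. Of 17 measured B-lineage markers all were at least 2-fold lower in Sipa1-/- MSCs, against 11.3% of all genes, with a median log2 ratio of -4.16. Cd79a and Cd79b, the signalling chains of the B cell receptor, went from 1.96 to -2.37 and from 6.65 to 2.49. The summed signal of the 18 B-lineage markers, in multiples of the array's 75th percentile, was 753 in Wt MSCs and 47.1 in Sipa1-/- MSCs, against 42.2 and 33.5 in Wt and Sipa1-/- CD8+ T cells. Rag1 was not well above background in Sipa1-/- MSCs or in either T cell sample. Common leukocyte markers were at least 2-fold lower in 14 of 16 cases, against 11.3% of all genes. Their median was -2.19 and their summed signal 246 in Wt and 62.5 in Sipa1-/- MSCs. Ptprc, which encodes the CD45 that the gate excluded, went from 0.76 to -0.55.

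Fibroblast markers went the other way, at least 2-fold higher in Sipa1-/- MSCs in 15 of 19 cases, against 19.3% of all genes. Their median log2 ratio was 1.78 and their summed signal 1170 in Wt and 2290 in Sipa1-/-. Pdgfrb, a growth factor receptor of stroma, went from 1.74 to 3.76, and Col1a1, a collagen chain, from 6.88 to 7.15. T cell markers had a median log2 ratio of 0.61 in MSCs, with 9 of 14 above 0, although their summed signal was 22 in Wt and 5.4 in Sipa1-/-, against 658 and 696 in the T cell samples. Cd2 and Lat, at -3.52 and -2.69, were the lowest of them, Cd3d and Cd3g lay at 1.10 and 1.43, and Themis was not well above background in either MSC sample. Macrophage markers had a median log2 ratio of 1.04 in MSCs, granulocyte markers 0.22, erythroid markers -0.17 and endothelial markers 0.01. The part of these other cells in the lower signal of mitosis and spindle genes was not tested, and in sorted bulk samples fewer cells of a dividing type and less of these RNAs per cell cannot be told apart. In CD8+ T cells, where the members stayed within 2-fold, B-lineage markers had a median of -0.09, common leukocyte markers -0.08 and T cell markers 0.01. Of 16 B-lineage markers 3 were at least 2-fold lower there, Igll1 at -2.21, Vpreb3 at -1.82 and Vpreb1 at -2.04, or 18.8% against 1.40% of all genes. Fibroblast markers were at least 2-fold higher there in 20 of 20 cases, against 2.66% of all genes.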

How the data were processed

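RNA of MSCs and CD8+ T cells was hybridized in one color (Cy3) to Agilent mouse arrays. The deposited values are spot intensities that the authors' software, Agilent Feature Extraction, had corrected for background and not normalized between arrays. The submitters' processing notes name version 9.1 and the file headers 12.0.3.1. The authors' series matrix is on a linear scale and equals the same intensities times 1 factor for each array, and the choice of factors is not given in the sources used here. Here, the log2 of the deposited intensities minus each array's 75th percentile over spots that are not controls was used. Probes were kept by the methods' flags (saturation, uneven spot or background, signal above background) on both arrays of a pair, and spots were averaged per probe and probes per gene. Symbols were matched by accession to RefSeq on GRCm38.p6, which named 57.6% of the spots that are not controls. A log2 ratio of 1 counted as 2-fold.

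The members and all lists were chosen with earlier results of these data known. Named were Sipa1, the members at both ends of each role group with 8 well-known ones, the 3 genes at each end of each pathway list and the leading markers, of which 2 genes are not reported here. Racgap1, Kif15 and Smc4, further members and the markers Cd2, Lat, Igll1, Vpreb1 and Vpreb3 were named after their values were seen. The steps were tested on simulated data. The background alternative used limma 3.58.1 in R 4.3.3, and all else Python 3.11.15 with pandas 2.3.3, numpy 2.4.6 and matplotlib 3.10.9. Alternatives were other flag rules, scalings, probe choices and background correction.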

Additional observations from a re-analysis of the deposited data

Results flagged for a closer look

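Foxm1 and Kif15 were the members whose genotype ratio had opposite signs in the 2 cell types with both sizes above 3 times the spot noise, a limit of 0.18 on the log2 scale. For Foxm1 the log2 ratio of Sipa1-/- over Wt was -2.04 in MSCs and 0.24 in CD8+ T cells, a difference of -2.29. For Kif15 it was -1.93 and 0.34, a difference of -2.27. Neither difference was tested, as each condition has 1 array, and the T cell ratios of both genes were below that limit by the brightest probe, at 0.053 for Foxm1 and 0.153 for Kif15.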

How the results depend on the processing

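No paired analysis was possible because there was a single array, numbered 1, for every condition. In MSCs, all 479 values of the 47 members called lower kept their direction under the alternatives run, and 476 stayed past 2-fold, with Bub3, Kif15 and Kif2c losing the call once each. The MSC median of -1.99 became -2.13 with a median shift, -1.79 with the series matrix and -1.79 with normexp on the median spot signal, and 21 members were called among those with at least 2 probes. In CD8+ T cells the median of -0.09 became -0.24 with a median shift and 0.041 with the series matrix. The median of all genes moved with the scaling too, to -0.10 (MSCs) and -0.17 (CD8+ T cells) with a median shift and to 0.25 and 0.11 with the series matrix. Both scalings shift a whole array by 1 constant, so members minus all genes had to stay at -2.03 and -0.07. With quantile normalization, which is not such a shift, it was -1.99 and -0.02, and with normexp -1.82 and -0.09.

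The comparisons between cell types depended more on scaling. In Wt the median of 0.93 became 0.70 with a median shift, 1.38 with the series matrix, 0.85 with the brightest probe and 0.84 with normexp. The 19 members at least 2-fold higher became 4, 41 and 11 with the median shift, series matrix and normexp, and 9 among members with at least 2 probes, and the 1 lower member became 0 with the series matrix and 0 with normexp. In Sipa1-/- the median of -0.97 became -1.19 with a median shift, -1.04 with quantile normalization, -0.44 with the series matrix, -0.91 among genes above the median signal, -0.80 with normexp and -1.11 among members with at least 2 probes. The 24 members at least 2-fold lower became 37 with a median shift, 4 with the series matrix, 14 among genes above the median signal and 12 among members with at least 2 probes, and the series matrix put 1, Anln, at least 2-fold higher against 0. The lower counts among members with at least 2 probes or above the median signal come with fewer members counted, and for the others the cause was not tested. The median difference of the genotype ratios, -1.89, became -1.82 with the series matrix and -1.70 with normexp, alternatives chosen for it after seeing the data. Keeping saturated spots changed nothing, as there were none, and other flag rules left every median and count above within the limits set.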

Other observations

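The Sipa1-/- CD8+ T cell sample differed from Wt in genes of other cells while its mitosis and spindle genes stayed within 2-fold. Granulocyte markers had a median log2 ratio of -1.27 there, with S100a8, a neutrophil calcium-binding protein, at 6.99 in Wt and 5.52 in Sipa1-/-, and erythroid markers had -1.09. Cdkn1c was higher in Sipa1-/- in both cell types, from -2.57 to -1.20 on the log2 scale in CD8+ T cells, beside fibroblast markers whose summed signal was 47.9 in Wt and 147 in Sipa1-/-. The part of stromal RNA in this value was not tested.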
